A study of Mus musculus with 62 samples.

Results

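The synaptic vesicle release machinery is described here as the protein-coding genes whose symbols belong to the families Syt, Stx, Stxbp, Snap, Vamp, Cplx, Sv2, Rab3, Rims, Unc13, Syn and Doc2. The GENCODE M21 annotation holds 93 such genes, found by a match on the family name followed by a digit. Sv2 was matched with a letter from a to c instead, and Stxbp, Rab3, Unc13 and Doc2 by the name alone. Of these, 78 were among the 12483 genes of the gene count tables. There were 76 in the table of the nucleus accumbens (NAc) and prefrontal cortex (PFC), 76 in the table of the suprachiasmatic nucleus (SCN) and 74 in both. Rab3d and Stxbp2 were listed for the NAc and PFC alone, and Rab34 and Vamp8 for the SCN alone. The other 15 members, among them Cplx3, Vamp7 and Unc13d, were listed in neither. The paper describes a filter on expression level, run separately for each region, and the counts were deposited after filtering. Both tables hold more genes than the paper retained for any of their regions, and the NAc and PFC share a set of rows. The filter behind these counts is thus not known in full. A gene that is not listed is therefore not shown to be absent from a region. Vamp7 is annotated on a scaffold outside the named chromosomes, and whether this kept it out was not tested. Because the name match is wider than the machinery, 8 syntaxins of internal membranes, 8 Rab GTPases outside the Rab3 group and 4 Rab3 regulators were kept as roles of their own.

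A synaptic vesicle fuses when a vesicle SNARE of the VAMP family zippers together with a syntaxin and SNAP25 on the plasma membrane. Munc13 proteins prepare this assembly, RIM proteins hold vesicles and calcium channels at the active zone, complexins clamp and promote the last step, and synaptotagmins sense the calcium that triggers it. Rab3 and the synapsins govern the supply of vesicles, and SV2 is a vesicle membrane glycoprotein. The PFC is rich in glutamatergic projection neurons, the NAc is built mainly of GABAergic projection neurons, and the SCN, the central circadian clock, consists largely of small GABAergic neurons.

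RNA was measured in punches from 26 C57BL/6J mice killed at ZT6 (6 h after lights on), about 4 weeks after circadian rhythm disruption (CRD) in adolescence or a matched control paradigm. There were 26 NAc, 17 PFC and 19 SCN libraries. Each library came from 1 mouse, and by their numbers 17 mice gave both NAc and PFC, 19 both SCN and NAc, and 12 both SCN and PFC. Labels hold region and mouse number but neither CRD or control nor sex, so each region is described over these groups together and none of their effects was tested. A punch holds every cell type of its region, so fewer cells of a type and less RNA per cell cannot be told apart.

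Total counts ran from 28879724 to 60009482 in the NAc, from 31216225 to 50333579 in the PFC and from 16496666 to 35389742 in the SCN. Of these, counts on nuclear protein-coding genes ran from 8965718 to 27046661, from 11583220 to 20427534 and from 5868489 to 23495106 in the same order. NAc J965 and NAc J1019 were lowest in the NAc, and gave the lowest NAc values of members such as Rab3a, Syt1, Syn1 and Doc2a. SCN J1157 and SCN J1159 were highest in the SCN, and SCN J1159 gave the highest SCN values of Rab3a, Syt1 and Syn1. The part of this in the ranges was not tested. Slc17a7, the vesicular glutamate transporter gene of cortical neurons, ran from 543 to 647 CPM (counts scaled to the library size) in the PFC and from 4.60 to 340.3 CPM in the NAc. In 13 of the 26 NAc libraries, called here those high in Slc17a7, it passed 10% of the PFC median. The summed CPM of the striatal markers Ppp1r1b, Drd1, Drd2, Adora2a, Rgs9 and Penk was 938 to 2386 in the NAc and 23.5 to 80.5 in the PFC. In the SCN, where 4 of these 6 were listed, it was 64.2 to 521 on the scale of that table, with the highest value in SCN J1199 and 235 in the library below it. The SCN markers Six6, Lhx1, Prok2, Nms, Vip and Avp summed to 48.8 to 355 CPM in the SCN, and in the NAc and PFC 1 of the 6 was listed. Xist, a transcript of the inactive X chromosome, was at 0.372 CPM (PFC), 0.589 CPM (NAc) and 53.1 CPM (SCN) in the libraries of mouse J1165, so the number of its SCN library did not match the other regions.

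The members took 1.59 to 1.92% of the nuclear protein-coding counts of a PFC library (median 1.81), 1.09 to 1.70% (median 1.38) in the NAc and 1.03 to 1.44% (median 1.14) in the SCN. Without the 13 NAc libraries high in Slc17a7, the NAc range was 1.09 to 1.39% (median 1.30) and no longer met that of the PFC. Because Slc17a7 is far higher in the PFC, leaving them out can by itself move PFC-high genes further from the PFC. This holds for every fit without them, so such fits are no independent test of a difference. The NAc libraries kept include J965 (1.11%) and J1019 (1.09%), those with the lowest nuclear protein-coding counts. Per kb of exon, the scale on which genes can be set against each other, the leading members were Snap25, Rab3a, Syt1 and Vamp2 in the PFC, Cplx2, Rab3a, Snap25 and Vamp2 in the NAc, and Rab3a, Snap47, Vamp2 and Syt4 in the SCN. Rab3a stood at 110, 76.1 and 74.9 CPM per kb in the PFC, NAc and SCN. Vamp2 stood at 96.4, 65.9 and 53.8 CPM per kb. Snap25 fell from 150 CPM per kb in the PFC to 75.2 in the NAc and 43.3 in the SCN.

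To ask how the machinery differs between the reward regions, the NAc was compared with the PFC. Genes counted as called when edgeR's quasi-likelihood test gave an adjusted p (Benjamini-Hochberg, over all 11569 genes) under 0.05 and the fold change was at least 1.2. The log2 ratio given with an adjusted p is the fitted log2 fold change ± SE. Of the 76 members tested, 51 (67.1%) were called, against 45.4% of all genes. There were 20 higher in the NAc, against 23.7% of all genes called that way, and 31 lower, against 21.7%. A change of at least 2-fold was called for 15 members, 8 higher and 7 lower in the NAc, that is 19.7% of the members against 8.89% of all genes. The ranges of the 26 NAc and 17 PFC libraries did not overlap for 21 members (27.6%), against 9.5% of all genes. Member ranges used CPM scaled over all 3 regions for genes in both tables. Those of all genes used CPM scaled over the NAc and PFC alone. The median log2 fold change was -0.16 over the members and 0.02 over all genes. The cell type markers differed as well: in the NAc, all 3 GABAergic markers (summed 389 to 824 CPM, against 99.5 to 156 in the PFC), all 6 striatal and all 6 oligodendrocyte markers (542 to 1406 against 125 to 389.7) were higher, and 4 of 5 glutamatergic markers (7.71 to 427 against 686 to 819) were lower. No listed marker of these lists was at 0 throughout a region, and their part in the results was not tested.

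**Figure D1:**
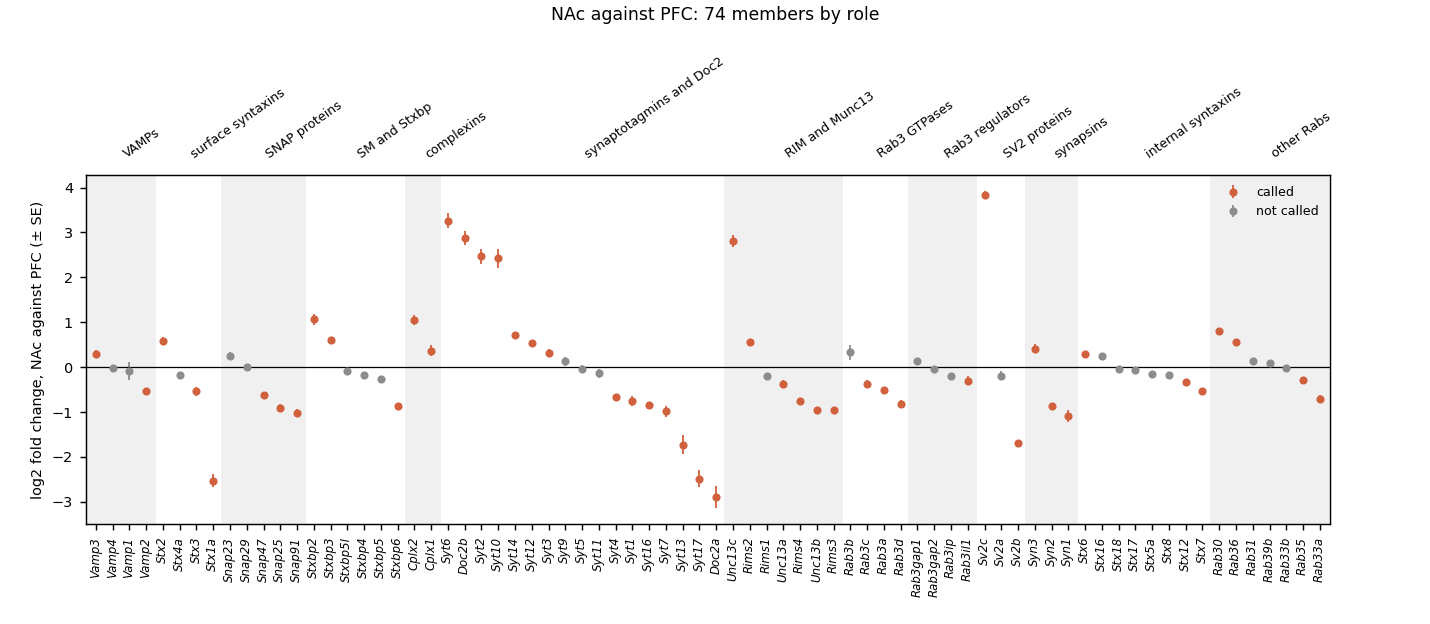
Log2 fold change ± SE between 26 NAc and 17 PFC libraries for 74 members in the table, arranged by role (values above 0 are higher in the NAc). Called members are coloured and the others grey; the 2 complexins lay above 0, and synaptotagmins and Doc2 proteins ran from -2.90 to 3.26.

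Among the SNARE families, calls went both ways: of the 4 VAMP genes 1 was higher in the NAc, 1 lower and 2 not called, of the 5 plasma membrane syntaxins 1 was higher, 3 lower and 1 not called, and of the 5 SNAP genes 3 were lower and 2 not called. Snap25, the plasma membrane SNARE that gives the complex a pair of its helices, was the most abundant member per kb in the PFC. Snap25 ranged from 837 to 1189 CPM in the PFC (median 1015.5), from 354 to 931 CPM in the NAc (median 511) and from 219 to 372 CPM in the SCN (median 294). Its NAc and PFC ranges met in a single NAc library above the lowest PFC library, NAc J1199, which was also the highest NAc library in Slc17a7. Snap25 was lower in the NAc in 17 of 17 mice with both (log2 ratio -0.90 ± 0.077, adjusted p = 2.7e-14). Vamp2, the main vesicle SNARE of forebrain synapses, was lower too (log2 ratio -0.53 ± 0.069, adjusted p = 5.2e-09). The median of Vamp2 was 367 CPM in the PFC (282 to 404), 251 CPM in the NAc (150.2 to 354) and 205 CPM in the SCN (166 to 312). Vamp1, its paralog, was not called, with NAc and PFC medians of 8.58 and 9.85 CPM (log2 ratio -0.09 ± 0.20, adjusted p = 0.73), but without the 13 NAc libraries high in Slc17a7 it was called as lower in the NAc (-0.63 on the log2 scale), as it was with the mouse as a block (-0.57). Vamp3, which serves endosomal traffic, was higher in the NAc (log2 ratio 0.29 ± 0.086, adjusted p = 0.0028), and Vamp4, of the Golgi and endosomes, was not called (log2 ratio -0.01 ± 0.05, adjusted p = 0.86).

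Stx1a encodes a syntaxin of the neuronal release site. Stx1a ranged from 105 to 139 CPM in the PFC (median 123), from 9.79 to 48.8 CPM in the NAc (median 17.5) and from 12.2 to 22.3 CPM in the SCN (median 15.2). No NAc library reached the lowest PFC library, and Stx1a was 5.75-fold lower in the NAc (log2 ratio -2.52 ± 0.13, adjusted p = 2.4e-21). It was at 9.79 to 18.6 CPM in the NAc libraries below the Slc17a7 limit and at 16.8 to 48.8 CPM in the others. The fit without the latter gave a log2 fold change of -3.06 for Stx1a. Of the syntaxins of other plasma membrane sites, Stx3, used at ribbon synapses and for postsynaptic exocytosis, was lower in the NAc (log2 ratio -0.54 ± 0.095, adjusted p = 3.2e-06), and Stx2 was higher (log2 ratio 0.59 ± 0.088, adjusted p = 1.3e-07). The median of Stx2 was 3.02 CPM in the PFC (2.36 to 3.8), 4.41 CPM in the NAc (2.95 to 6.67) and 5.69 CPM in the SCN (3.84 to 15.6). Snap47, a SNAP paralog without membrane anchors, did not overlap between the NAc and PFC. Snap47 ranged from 153 to 186 CPM in the PFC (median 169.6), from 83.7 to 143 CPM in the NAc (median 107) and from 125 to 188 CPM in the SCN (median 148). It was lower in the NAc (log2 ratio -0.63 ± 0.062, adjusted p = 3.2e-12), and Snap23, the SNAP25 paralog of most other tissues, was not called (log2 ratio 0.25 ± 0.092, adjusted p = 0.016), though it was called as higher without the NAc libraries high in Slc17a7 (0.39) and with the mouse as a block (0.32). Snap91, caught by its name alone, encodes a clathrin adaptor that retrieves vesicle membrane. The median of Snap91 was 191 CPM in the PFC (129.9 to 232), 95 CPM in the NAc (57.7 to 138) and 71.6 CPM in the SCN (50.6 to 119). It was lower in the NAc in 17 of 17 mice (log2 ratio -1.01 ± 0.082, adjusted p = 5.6e-15).

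Stx1a (ENSMUSG00000007207) lies on chromosome 5 from 135023482 to 135051100, on the plus strand of GRCm38, and its counts are reads on its exons. Its promoter is shown because its NAc to PFC difference was the largest among the SNARE genes tested. The 250 bases before its start in RefSeq (GRCm38.p6, chr5:135023232-135023481, plus strand) hold 1 GC box, GGGCGG, in capitals.
Stx1a: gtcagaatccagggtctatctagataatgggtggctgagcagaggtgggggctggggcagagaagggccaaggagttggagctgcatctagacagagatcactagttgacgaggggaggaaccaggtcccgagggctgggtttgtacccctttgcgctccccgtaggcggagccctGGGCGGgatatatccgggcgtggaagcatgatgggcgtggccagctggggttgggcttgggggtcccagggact

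**Figure D2:**
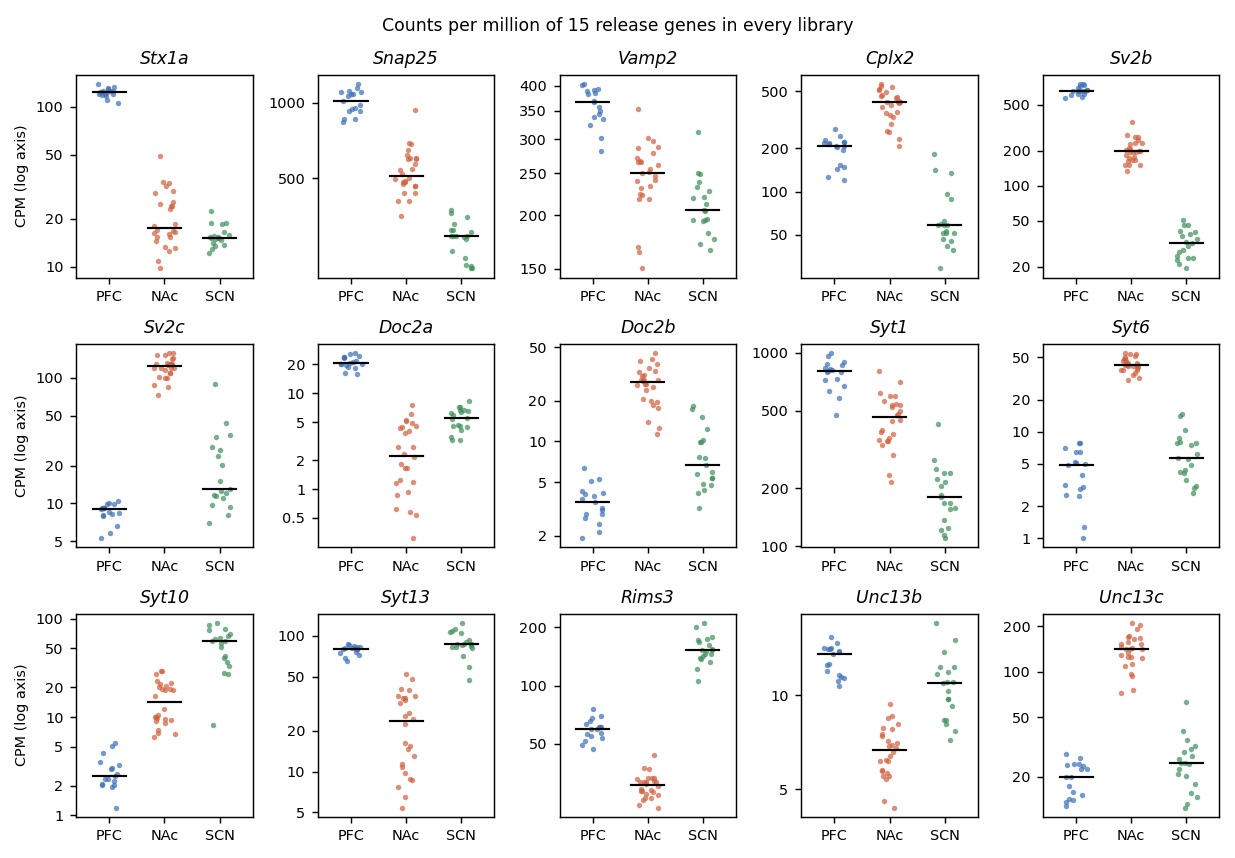
CPM on a log axis of 15 members in each of the 17 PFC, 26 NAc and 19 SCN libraries; a point is a library and the bar the median. Stx1a, Sv2b and Doc2a stand highest in the PFC, Sv2c, Syt6, Doc2b and Unc13c in the NAc, and Rims3 and Syt10 in the SCN.

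Among the genes for proteins that bind syntaxin, Stxbp2, an SM protein gene of blood cells and epithelia, was higher in the NAc from a low level, with 3.42 CPM against 1.83 CPM at the median (log2 ratio 1.06 ± 0.12, adjusted p = 3.3e-10). Stxbp6, which encodes amisyn, a protein that competes for the SNAREs, was lower in the NAc with no overlap (log2 ratio -0.87 ± 0.065, adjusted p = 3.7e-16). Stxbp6 ranged from 39 to 54.1 CPM in the PFC (median 43), from 17 to 31.7 CPM in the NAc (median 24.5) and from 3.02 to 15.6 CPM in the SCN (median 5.16). The tomosyn genes Stxbp5 and Stxbp5l, whose products also hold syntaxin out of the complex, were not called, with log2 fold changes of -0.26 ± 0.055 and -0.09 ± 0.061. Stxbp5 lay just under the fold limit and was called without the NAc libraries high in Slc17a7 (-0.38), with the mouse as a block (-0.31) and by DESeq2 (-0.26).

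The complexins were the role in which every member listed was higher in the NAc. Cplx2 ranged from 120.0 to 272 CPM in the PFC (median 209), from 208 to 566 CPM in the NAc (median 420.2) and from 29.1 to 184 CPM in the SCN (median 58.1). Cplx2 had the highest level per kb of any member in the NAc, 85.3 CPM per kb against 42.3 in the PFC, and was higher there in 15 of 17 mice (log2 ratio 1.05 ± 0.11, adjusted p = 2.7e-11). Cplx1 ran from 47.1 to 179 CPM in the NAc and from 53.3 to 128 CPM in the PFC, so that the PFC range lay inside that of the NAc. Its call (log2 ratio 0.36 ± 0.12, adjusted p = 0.0095) was lost without the 13 NAc libraries high in Slc17a7 (0.095) and in the 17 mice with both regions, with the mouse as a block (0.12) or without it (0.15).

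The calcium sensors moved in both directions: of 17 tested, 7 were higher in the NAc, 7 lower and 3 not called. The canonical sensor of fast release, Syt1, was lower in the NAc. The median of Syt1 was 807 CPM in the PFC (474 to 991), 465 CPM in the NAc (214 to 802) and 180.5 CPM in the SCN (111 to 430.4). It fell in 16 of 17 mice with overlapping ranges (log2 ratio -0.75 ± 0.11, adjusted p = 1.8e-07). The fit without the NAc libraries high in Slc17a7 gave -1.05 for Syt1. Syt2, the fast sensor of brainstem, spinal and some inhibitory synapses, was 5.53-fold higher in the NAc (log2 ratio 2.47 ± 0.17, adjusted p = 9.6e-18). The median of Syt2 was 2.88 CPM in the PFC (0.729 to 5.14), 16.7 CPM in the NAc (9.66 to 24.7) and 6.78 CPM in the SCN (1.32 to 21.7). Its NAc libraries stood above the whole PFC, yet per kb it reached only 2.18 CPM in the NAc, where Syt1 was at 55.7. Syt9, a further fast sensor, was not called (log2 ratio 0.13 ± 0.1, adjusted p = 0.26). Syt7, the slow, high-affinity sensor of asynchronous release, was lower in the NAc (log2 ratio -0.98 ± 0.13, adjusted p = 4e-09). The median of Syt7 was 75.5 CPM in the PFC (42.5 to 91), 37.6 CPM in the NAc (16.2 to 57.9) and 13.3 CPM in the SCN (6.74 to 38.4).

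Syt3, Syt6 and Syt10 form a branch of the family joined by disulfide bonds. Syt6 ranged from 1 to 7.84 CPM in the PFC (median 4.85), from 30.7 to 54.4 CPM in the NAc (median 42.6) and from 2.65 to 14.8 CPM in the SCN (median 5.69). No PFC or SCN library reached the lowest NAc library, and Syt6 was higher there in 17 of 17 mice (log2 ratio 3.26 ± 0.17, adjusted p = 4.8e-22). Syt10, which is known as a gene of the SCN and controls the exocytosis of growth factor vesicles in olfactory neurons, also stood above the PFC in the NAc (log2 ratio 2.43 ± 0.21, adjusted p = 9.2e-14), with no overlap. Syt10 ranged from 1.2 to 5.46 CPM in the PFC (median 2.5), from 6.23 to 29.3 CPM in the NAc (median 14.2) and from 8.21 to 90.9 CPM in the SCN (median 59). Syt3 was called by a small margin (log2 ratio 0.31 ± 0.086, adjusted p = 0.0016), and the call was lost without the 13 NAc libraries high in Slc17a7. Syt5, a sensor of dense-core vesicles, was not called (log2 ratio -0.03 ± 0.076, adjusted p = 0.73).

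Syt6 (ENSMUSG00000027849) lies on chromosome 3 from 103575231 to 103645569, plus strand. Its first RefSeq window (chr3:103574995-103575244, plus strand) is shown because it holds the E-box CACGTG, the element that clock proteins can bind, beside a GC box on either side, all in capitals.
Syt6: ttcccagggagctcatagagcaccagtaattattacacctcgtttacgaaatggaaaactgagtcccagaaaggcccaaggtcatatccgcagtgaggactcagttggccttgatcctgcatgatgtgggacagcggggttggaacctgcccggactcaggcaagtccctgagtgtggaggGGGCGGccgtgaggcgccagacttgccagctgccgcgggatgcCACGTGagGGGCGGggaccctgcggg

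The soluble sensors of the Doc2 family changed places. Doc2a ranged from 15.7 to 26 CPM in the PFC (median 20.7), from 0.309 to 7.47 CPM in the NAc (median 2.22) and from 3.28 to 8.21 CPM in the SCN (median 5.55). Doc2b ranged from 1.93 to 6.37 CPM in the PFC (median 3.57), from 11.4 to 45 CPM in the NAc (median 27.3) and from 3.23 to 18.3 CPM in the SCN (median 6.7). Per kb of exon, every PFC library held more Doc2a than Doc2b, and every NAc library more Doc2b than Doc2a. Doc2a was lower in the NAc (log2 ratio -2.90 ± 0.24, adjusted p = 1.8e-14) and Doc2b higher (log2 ratio 2.88 ± 0.16, adjusted p = 1.2e-20), with no overlap for either. Doc2a had the widest spread of any member in the NAc, with a coefficient of variation of 71.3%. In the 13 NAc libraries below the Slc17a7 limit it was at 0.309 to 4.50 CPM (median 1.16), and in the other 13 at 1.83 to 7.47 CPM (median 4.33). The fit without the latter gave a log2 fold change of -3.93. Of the exon bases of Doc2a, 39.4% are shared with a gene on the opposite strand. The strand setting of the counting is not given in the sources used here, so reads of the pair cannot be told apart. The same limit holds, among others, for Syt12 (17.2%), Syt4 (14.5%), Syn3 (14.1%) and Snap47 (11.6%).

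Several other synaptotagmins lack the residues that bind calcium. Of these, Syt12 was higher in the NAc (log2 ratio 0.53 ± 0.067, adjusted p = 1.9e-09). Syt13 ranged from 65.1 to 87.1 CPM in the PFC (median 80.2), from 5.43 to 51.9 CPM in the NAc (median 23.5) and from 47.2 to 125 CPM in the SCN (median 87.1). Syt17 ranged from 13.3 to 22.5 CPM in the PFC (median 18.7), from 0.92 to 7.46 CPM in the NAc (median 2.6) and from 3.93 to 10.3 CPM in the SCN (median 7.74). Both were lower in the NAc without overlap (-1.73 ± 0.21 and -2.48 ± 0.19 on the log2 scale, adjusted p = 8.9e-10 and 1.1e-15), and both stood higher in NAc libraries high in Slc17a7. The fit without these 13 libraries gave -2.58 for Syt13 and -3.22 for Syt17. Syt4, of dense-core vesicles, had the narrowest spread of any member in the NAc, 6.05% of its mean, and was lower there without overlap (log2 ratio -0.66 ± 0.033, adjusted p = 1.7e-22). The median of Syt4 was 224 CPM in the PFC (206 to 262), 144 CPM in the NAc (126 to 165) and 197 CPM in the SCN (137 to 233). Syt16 was also lower in every mouse with both regions (log2 ratio -0.83 ± 0.043, adjusted p = 4.7e-22). The median of Syt16 was 48.1 CPM in the PFC (43.3 to 53.7), 26.7 CPM in the NAc (21.9 to 33.1) and 18.2 CPM in the SCN (13.6 to 23.6). Syt11, the inhibitor of endocytosis, was not called (log2 ratio -0.14 ± 0.093, adjusted p = 0.18), but was called as lower without the NAc libraries high in Slc17a7 and with the mouse as a block (both -0.28).

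**Figure D3:**
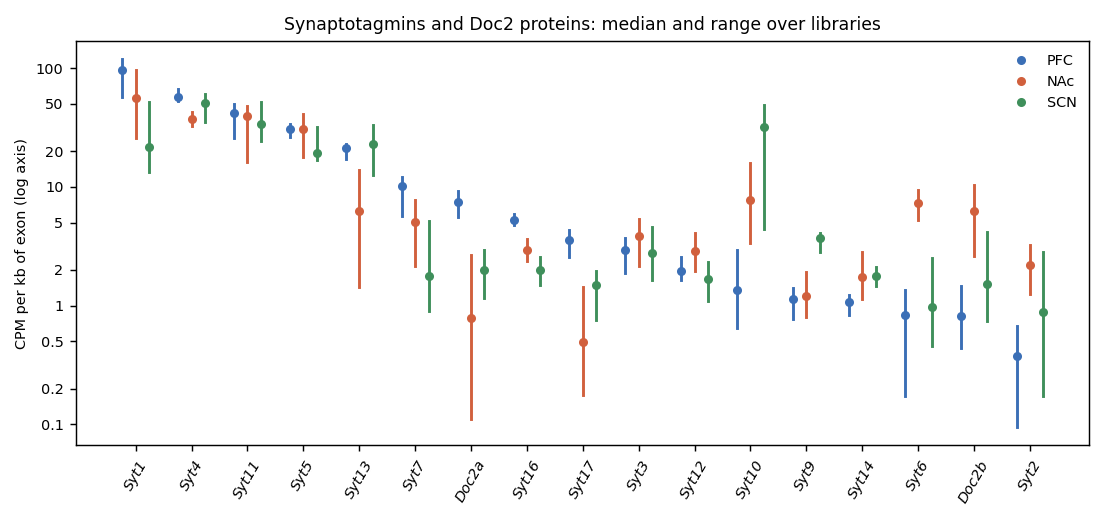
Level per kb of exon (log axis) of the 17 synaptotagmin and Doc2 genes in the PFC, NAc and SCN; points are medians and bars the lowest to highest of 17, 26 and 19 libraries. Genes are ordered by their PFC median, from Syt1 at 96.8 CPM per kb to Syt2 at 0.377.

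At the active zone, Rims1 and Rims2 encode the long RIM scaffolds that bind Rab3, Munc13 and calcium channels. The median of Rims1 was 207 CPM in the PFC (175 to 234), 169 CPM in the NAc (138 to 262) and 101 CPM in the SCN (68.5 to 113). The median of Rims2 was 135 CPM in the PFC (113 to 172), 189 CPM in the NAc (143 to 312) and 224 CPM in the SCN (109 to 282). Rims2 was higher in the NAc (log2 ratio 0.55 ± 0.077, adjusted p = 2.3e-08) and Rims1 was not called (log2 ratio -0.19 ± 0.064, adjusted p = 0.0076). The short RIM genes Rims3 and Rims4, whose products keep the last C2 domain alone, were both lower in the NAc without overlap. Rims3 ranged from 46.8 to 75.4 CPM in the PFC (median 59.9), from 23.5 to 43.9 CPM in the NAc (median 30.6) and from 106 to 211 CPM in the SCN (median 152). Rims4 ranged from 27.3 to 38.9 CPM in the PFC (median 33), from 14.9 to 26.3 CPM in the NAc (median 19.2) and from 18.1 to 33.8 CPM in the SCN (median 23.7). The log2 fold changes were -0.96 ± 0.059 for Rims3 (adjusted p = 4.3e-19) and -0.76 ± 0.051 for Rims4 (adjusted p = 6.6e-18).

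The Munc13 priming factors split in the same comparison. Unc13c ranged from 12.9 to 28.6 CPM in the PFC (median 20.1), from 72.4 to 211 CPM in the NAc (median 142) and from 12.5 to 62.8 CPM in the SCN (median 24.6). Unc13c, best known from the cerebellum, was 7.02-fold higher in the NAc (log2 ratio 2.81 ± 0.13, adjusted p = 4.2e-24), and every NAc library exceeded every PFC library. Unc13b, a paralog used at a minority of glutamatergic synapses, was lower without overlap (log2 ratio -0.95 ± 0.071, adjusted p = 3.4e-16). The median of Unc13b was 13.6 CPM in the PFC (10.7 to 15.3), 6.67 CPM in the NAc (4.38 to 9.39) and 11 CPM in the SCN (7.21 to 17). Unc13a, the main priming factor of excitatory synapses, was lower with overlapping ranges (log2 ratio -0.37 ± 0.096, adjusted p = 0.00076). The median of Unc13a was 97.8 CPM in the PFC (56.3 to 135), 78.2 CPM in the NAc (39.2 to 106) and 27.7 CPM in the SCN (20 to 56.9).

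Of the Rab3 GTPases, which ride on vesicles and bind RIM, 3 of 4 were lower in the NAc and none higher. Rab3a ranged from 192 to 272 CPM in the PFC (median 245), from 89.9 to 253 CPM in the NAc (median 169) and from 139 to 228 CPM in the SCN (median 167). Rab3a was lower in 17 of 17 mice (log2 ratio -0.52 ± 0.083, adjusted p = 5.2e-07), as was Rab3c in 15 of 17 mice (log2 ratio -0.37 ± 0.077, adjusted p = 4.1e-05). The median of Rab3c was 215 CPM in the PFC (137 to 262), 161 CPM in the NAc (94.6 to 224) and 132 CPM in the SCN (99.3 to 249). Rab3d, of secretory granules, was at 3.63 CPM in the PFC and 1.98 CPM in the NAc (log2 ratio -0.83 ± 0.092, adjusted p = 7.9e-11). Rab3b was not called (log2 ratio 0.33 ± 0.17, adjusted p = 0.089); its log2 fold change turned to -0.12 without the NAc libraries high in Slc17a7 and with the mouse as a block. Rab3il1, an exchange factor, was the 1 of 4 regulators called (log2 ratio -0.30 ± 0.10, adjusted p = 0.0093), and Rab3gap1, a subunit of the protein that ends the Rab3 cycle, was not called (log2 ratio 0.14 ± 0.045, adjusted p = 0.0058).

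Each SV2 gene behaved differently. Sv2a, the form of nearly all synapses, was not called (log2 ratio -0.19 ± 0.096, adjusted p = 0.085), but was called as lower without the NAc libraries high in Slc17a7 (-0.42) and in the 17 mice with both regions, with the mouse as a block (-0.38) or without it (-0.35). Sv2a ranged from 110.2 to 185 CPM in the PFC (median 160.4), from 59.9 to 196 CPM in the NAc (median 145) and from 107 to 260.2 CPM in the SCN (median 152). Sv2b ranged from 569.7 to 755 CPM in the PFC (median 658), from 133 to 357 CPM in the NAc (median 198) and from 19.3 to 50.5 CPM in the SCN (median 32.2). Sv2b was 3.23-fold lower in the NAc than in the PFC, and lower again in the SCN, and the ranges of the 3 regions did not overlap (log2 ratio -1.69 ± 0.081, adjusted p = 4.2e-23). Sv2c, known from the basal ganglia, had the largest log2 fold change of all members in the comparison. Sv2c ranged from 5.31 to 10.5 CPM in the PFC (median 9.06), from 72.7 to 157 CPM in the NAc (median 124) and from 6.93 to 89.1 CPM in the SCN (median 13). It exceeded the PFC 14.3-fold in the NAc, in 17 of 17 mice (log2 ratio 3.84 ± 0.096, adjusted p = 7.8e-34).

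The starts of these paralogs are shown because the genes moved in opposite directions. Sv2b (ENSMUSG00000053025) lies on chromosome 7 from 75114894 to 75309262 and Sv2c (ENSMUSG00000051111) on chromosome 13 from 95954594 to 96132577, both on the minus strand of GRCm38. The RefSeq window of Sv2b that ends at this start (chr7:75309263-75309512) holds a TATA box on the opposite strand, TTTATA, and no GC box. That of Sv2c (chr13:96132578-96132827) holds GC boxes as CCGCCC and no TATA box. The motifs are in capitals.
Sv2b: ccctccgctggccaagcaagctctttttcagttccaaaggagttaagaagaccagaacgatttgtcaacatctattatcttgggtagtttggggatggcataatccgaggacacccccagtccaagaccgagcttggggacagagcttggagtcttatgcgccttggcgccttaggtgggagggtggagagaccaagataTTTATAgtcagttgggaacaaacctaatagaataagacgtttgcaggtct
Sv2c: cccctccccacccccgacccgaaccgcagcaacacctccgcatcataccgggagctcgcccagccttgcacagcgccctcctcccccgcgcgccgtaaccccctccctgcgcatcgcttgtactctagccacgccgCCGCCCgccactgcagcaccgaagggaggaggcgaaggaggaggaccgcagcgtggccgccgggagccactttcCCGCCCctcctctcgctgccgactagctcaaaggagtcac

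The synapsins tether vesicles to each other and to actin. The median of Syn1 was 237 CPM in the PFC (125 to 312), 101 CPM in the NAc (37.1 to 181) and 82.2 CPM in the SCN (46.8 to 207). The median of Syn2 was 256 CPM in the PFC (194 to 300.3), 141 CPM in the NAc (88.6 to 172) and 144 CPM in the SCN (103 to 218). Both were lower in the NAc (-1.09 ± 0.14 for Syn1, adjusted p = 5.6e-09, and -0.86 ± 0.061 for Syn2, adjusted p = 8.8e-17, on the log2 scale), and the ranges of Syn2 did not overlap. The fit without the NAc libraries high in Slc17a7 gave -1.39 for Syn1. Syn3, the form of immature and newly formed neurons, was slightly higher at a low level, with NAc and PFC medians of 5.15 and 3.74 CPM (log2 ratio 0.41 ± 0.095, adjusted p = 0.00023).

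The genes that the name match adds to the release core changed in both directions. Of these 19, 3 were higher in the NAc, 5 lower and 11 not called, beside 17, 26 and 14 of the 57 others. Among the Rabs outside the Rab3 group the largest rise was in Rab30 (log2 ratio 0.80 ± 0.08, adjusted p = 4.2e-12), a Rab of the Golgi, and the largest fall in Rab33a (log2 ratio -0.70 ± 0.067, adjusted p = 1.5e-12). Among the internal syntaxins they were in Stx6 of the trans-Golgi network (log2 ratio 0.30 ± 0.067, adjusted p = 0.00016) and Stx7 of late endosomes (log2 ratio -0.54 ± 0.048, adjusted p = 1.3e-13). The difference between the 2 sets was not tested. Mouse numbers fell into a lower and an upper range, which may be batches: 51 members were called within the lower range, where Syt3, Cplx1, Syn3 and Stx12 lost their calls, and 47 within the upper, where the calls lost included Rab3il1, Unc13a and Vamp3.

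The SCN was compared with the NAc and PFC in 1 fit over the 11133 genes that both tables list. The SCN counts came in a table of their own, so region and table cannot be told apart, and both comparisons use the same SCN libraries. Against the NAc, 49 of 74 members (66.2%) were called, beside 64.1% of all genes. There were 20 higher in the SCN (33.1% of all genes) and 29 lower (31% of all genes). Against the PFC, 54 (73%) were called, beside 64.7% of all genes, with 22 higher (33.7% of all genes) and 32 lower (31% of all genes). Calls of at least 2-fold numbered 19 against the NAc (25.7%, beside 14.5% of all genes) and 26 against the PFC (35.1%, beside 16.5%). Ranges did not overlap for 10 members against the NAc (13.5%, beside 13.2% of all genes) and for 20 against the PFC (27%, beside 20.7%). On the scale of the joint fit, all 5 astrocyte markers were higher in the SCN (summed 728 to 1459 CPM) than in the NAc (325 to 700.5) and PFC (402 to 633), and all 6 oligodendrocyte markers were higher than in the PFC (365 to 2663 against 133 to 407), with 2 of 6 higher than in the NAc. The 3 GABAergic markers (226 to 826) were higher than in the PFC (104 to 166), while against the NAc (406 to 863) 2 of 3 were lower and none higher. Slc17a6, the vesicular glutamate transporter gene of many subcortical neurons, was higher in the SCN than in the NAc (3.82 ± 0.27 on the log2 scale) and the PFC (3.48 ± 0.31), at 22.8 to 106 CPM. Their part in the results was not tested.

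**Figure D4:**
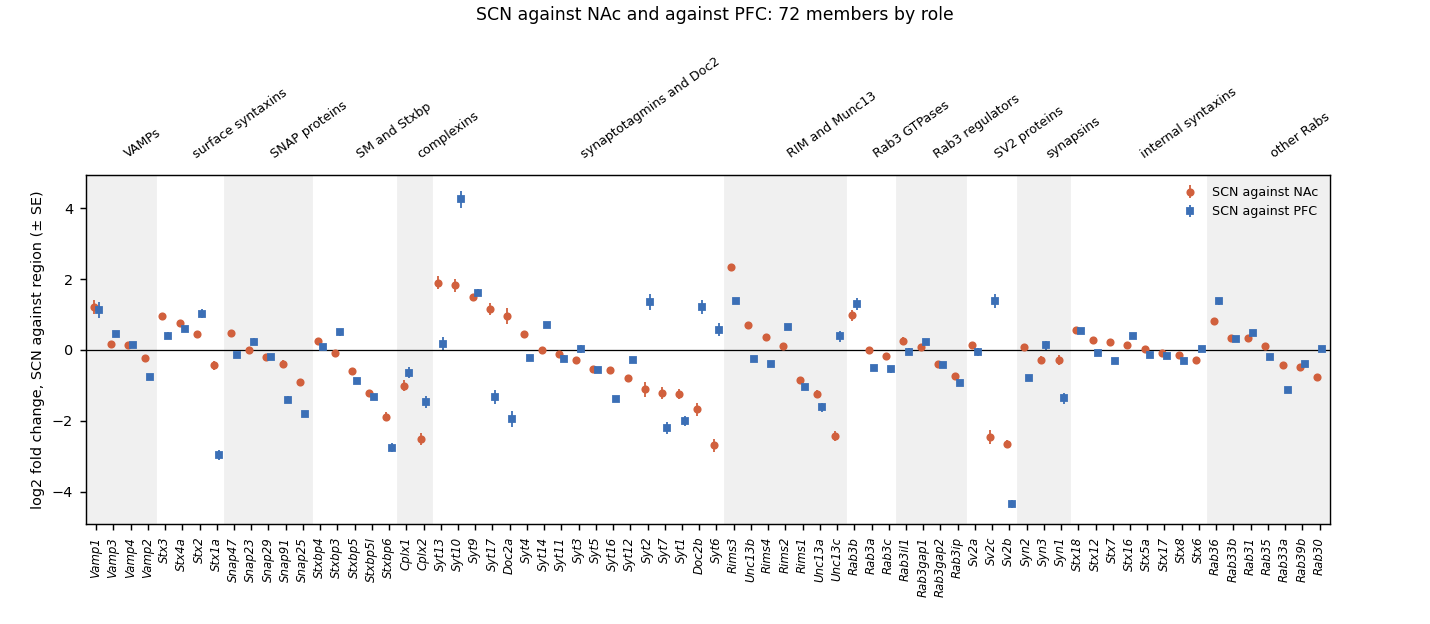
Log2 fold change ± SE of the SCN (19 libraries) against the NAc (circles, 26) and the PFC (squares, 17) for 72 members in both tables, arranged by role. Both complexins lie below 0 in both comparisons, and Rims3, Syt10, Syt9, Vamp1 and Rab3b above.

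Members that stood highest in the SCN belonged to several roles. Rims3 was 5.05-fold higher than in the NAc (log2 ratio 2.34 ± 0.063, adjusted p = 2.9e-41) and 2.59-fold higher than in the PFC (log2 ratio 1.37 ± 0.071, adjusted p = 6.1e-27), with no overlap with either. Its 19 SCN libraries lay at 106 to 211 CPM, and the lowest was SCN J1199. Syt10 was higher in the SCN than in the NAc (log2 ratio 1.82 ± 0.19, adjusted p = 2.7e-13) and the PFC (log2 ratio 4.24 ± 0.25, adjusted p = 3.8e-24). Its lowest SCN library, J1018 at 8.21 CPM, lay inside the NAc range, while all 19 lay above the PFC. Syt9 took 11.2 to 16.3 CPM in the SCN, above every library of the other regions (log2 ratio 1.49 ± 0.084, adjusted p = 5.2e-25 against the NAc and log2 ratio 1.62 ± 0.097, adjusted p = 8.5e-24 against the PFC). The cortical and accumbal medians of Syt9 were 4.55 and 4.79 CPM.

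Vamp1 was higher in the SCN than in either region, with overlap (1.21 ± 0.20 and 1.12 ± 0.23 on the log2 scale against the NAc and PFC, adjusted p = 2.3e-07 and 1.3e-05). The lowest, median and highest values of Vamp1 were 7.39, 9.85 and 16 CPM in the PFC, 3.17, 8.58 and 19.3 CPM in the NAc and 7.63, 19 and 43.3 CPM in the SCN. Rab3b, a Rab3 known from pituitary cells, was higher as well (0.97 ± 0.15 and 1.30 ± 0.17, adjusted p = 3e-08 and 4.3e-10). The lowest, median and highest values of Rab3b were 9.65, 14.8 and 18.5 CPM in the PFC, 5.43, 20.4 and 29.3 CPM in the NAc and 18.4, 33.6 and 53.1 CPM in the SCN. The SCN range of either gene reached above those of the other regions. That of Vamp1 began near the lowest PFC library and that of Rab3b near the highest. Stx3 and Stx2 were also higher in the SCN than in the NAc (0.95 ± 0.096 and 0.44 ± 0.10) and the PFC (0.41 ± 0.11 and 1.02 ± 0.12).

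Some central parts of the fast release apparatus were lower in the SCN than in both other regions, and others were not. Of the 4 VAMP genes, 1 was higher in the SCN than in the NAc and 3, Vamp2 among them, were not called. Sv2b was 6.29-fold lower than in the NAc (log2 ratio -2.65 ± 0.10, adjusted p = 5.1e-33) and 20.4-fold lower than in the PFC (log2 ratio -4.35 ± 0.12, adjusted p = 9.2e-42). Stxbp6 was lower without overlap with either region (-1.88 ± 0.12 and -2.76 ± 0.13 on the log2 scale), as was the tomosyn gene Stxbp5l (-1.23 ± 0.065 and -1.32 ± 0.07). The lowest, median and highest values of Stxbp5l were 89.9, 106 and 127 CPM in the PFC, 78, 93.3 and 140.0 CPM in the NAc and 26.4, 42.6 and 51.9 CPM in the SCN. Snap25 was lower than in the NAc (log2 ratio -0.90 ± 0.077, adjusted p = 9e-17), where the ranges touched, and than in the PFC (log2 ratio -1.81 ± 0.085, adjusted p = 4.4e-29), where they did not. Syt1 was lower by -1.25 ± 0.13 against the NAc and -2.00 ± 0.14 against the PFC on the log2 scale, and Syt7 by -1.21 ± 0.16 and -2.20 ± 0.18. Unc13a was lower by -1.24 ± 0.12 and -1.62 ± 0.13, and Rims1 by -0.84 ± 0.062 and -1.04 ± 0.067. Syt16 and Syt5 were lower than in both regions too. Syn1, by contrast, was lower than in the PFC (-1.37 ± 0.16) and not called against the NAc (-0.28 ± 0.15).

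Cplx2 separated the SCN from the NAc in every library, at a 5.71-fold lower level (log2 ratio -2.51 ± 0.16, adjusted p = 2.4e-22). Against the PFC it was lower with overlap (log2 ratio -1.47 ± 0.16, adjusted p = 3.1e-12). The highest SCN value, 184 CPM, was that of SCN J1199, followed by 142 CPM in SCN J1140. Genes raised in the NAc against the PFC went both ways in the SCN. The medians of Syt10 and Rims2 were higher in the SCN (59 and 224 CPM) than in the NAc (14.2 and 189 CPM). Others lay between the NAc and PFC in the SCN. Sv2c, Syt6, Unc13c and Doc2b were lower than in the NAc by -2.45 ± 0.19, -2.69 ± 0.18, -2.43 ± 0.14 and -1.68 ± 0.17 on the log2 scale, and higher than in the PFC by 1.38 ± 0.20, 0.57 ± 0.19, 0.38 ± 0.15 and 1.2 ± 0.19. SCN J1199, the library with the highest striatal markers, was the highest SCN library for Sv2c at 89.1 CPM, Unc13c at 62.8 CPM and Syt6 at 14.8 CPM. The part of those markers in the result was not tested. Without SCN J1199 and SCN J1140, Sv2c was at -2.79 against the NAc and 1.04 against the PFC, and the call of Unc13c against the PFC was lost. The calls of Unc13c and Syt6 against the PFC were also lost in the 12 mice with both regions, with the mouse as a block or without it.

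Stx1a was low in the SCN as in the NAc, and lowest in the SCN at the median. Against the PFC the difference was -2.96 ± 0.14 on the log2 scale with no overlap (adjusted p = 1.7e-29). Against the NAc it was -0.44 ± 0.12 (adjusted p = 0.0008), and it turned to 0.11 and was not called without the 13 NAc libraries high in Slc17a7. Doc2a lay between the other regions, above the NAc (log2 ratio 0.96 ± 0.22, adjusted p = 6.6e-05) and below the PFC (log2 ratio -1.95 ± 0.24, adjusted p = 4.1e-11). Syt17 did the same (1.16 ± 0.17 and -1.32 ± 0.19). Syt13 was far above the NAc (log2 ratio 1.90 ± 0.18, adjusted p = 9.7e-15) and not called against the PFC (log2 ratio 0.17 ± 0.20, adjusted p = 0.45). Leaving out the NAc libraries high in Slc17a7 raised the distance to the NAc to 1.99 for Doc2a, 1.90 for Syt17 and 2.76 for Syt13. Rab3a and Sv2a were not called against the NAc (0.00 ± 0.075 and 0.14 ± 0.094), but without the NAc libraries high in Slc17a7 Sv2a was called as higher (0.37). Within the lower range of mouse numbers, Syt3, Stx6 and Stx1a lost their calls against the NAc and Unc13c, Syt2, Syt6 and Stx7 against the PFC. Within the upper range Syn3 lost its call against the NAc, and Syt12, Cplx1 and Stx3 against the PFC.

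The share of 1 paralog within a pair, per kb of exon and within a library, does not depend on the scaling between libraries or tables, and was described without a test. Doc2b made up 4.96 to 13.6% of the Doc2 pair in the PFC (median 9.95), 61.5 to 97.1% (median 88.7) in the NAc and 31.1 to 73.8% (median 44.9) in the SCN. The PFC stood apart from the other regions in every library.

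Sv2b against Sv2a gave 65.2 to 74.9% in the PFC (median 69.2), 30.3 to 61.5% (median 44.3) in the NAc and 6.37 to 16.8% (median 10.4) in the SCN, 3 bands that did not meet. Sv2c against Sv2a gave 1.81 to 2.88% in the PFC (median 2.53), 20.0 to 38.7% (median 29.5) in the NAc and 2.40 to 22.3% (median 4.10) in the SCN. The upper end of the SCN was a single library that met the NAc range. Rims2 against Rims1 differed by region as well, with 27.1 to 36.8% in the PFC (median 32.3), 34.9 to 48.4% (median 45.3) in the NAc and 53.0 to 64.0% (median 61.6) in the SCN. The SCN stood apart, and the lowest NAc library met the PFC.

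Cplx1 took a median of 49.1% of the complexin pair in the PFC (44.7 to 58.2), 38.3% in the NAc (27.6 to 52.9) and 66.2% in the SCN (42.5 to 75), so the ranges overlapped. Unc13b, at medians of 6.73%, 4.44% and 16.3% in the PFC, NAc and SCN, was a minor partner of Unc13a everywhere. Syt2 was 0.403% of its pair with Syt1 in the PFC, 4.43% in the NAc and 3.94% in the SCN at the median, and Vamp1 was 1.03%, 1.33% and 3.52% of its pair with Vamp2. Shares of Syn2 with Syn1 (33.8%, 38.9% and 45.6%) and of Rab3c with Rab3a (13.5%, 15% and 12.5%) overlapped among all regions.

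**Figure D5:**
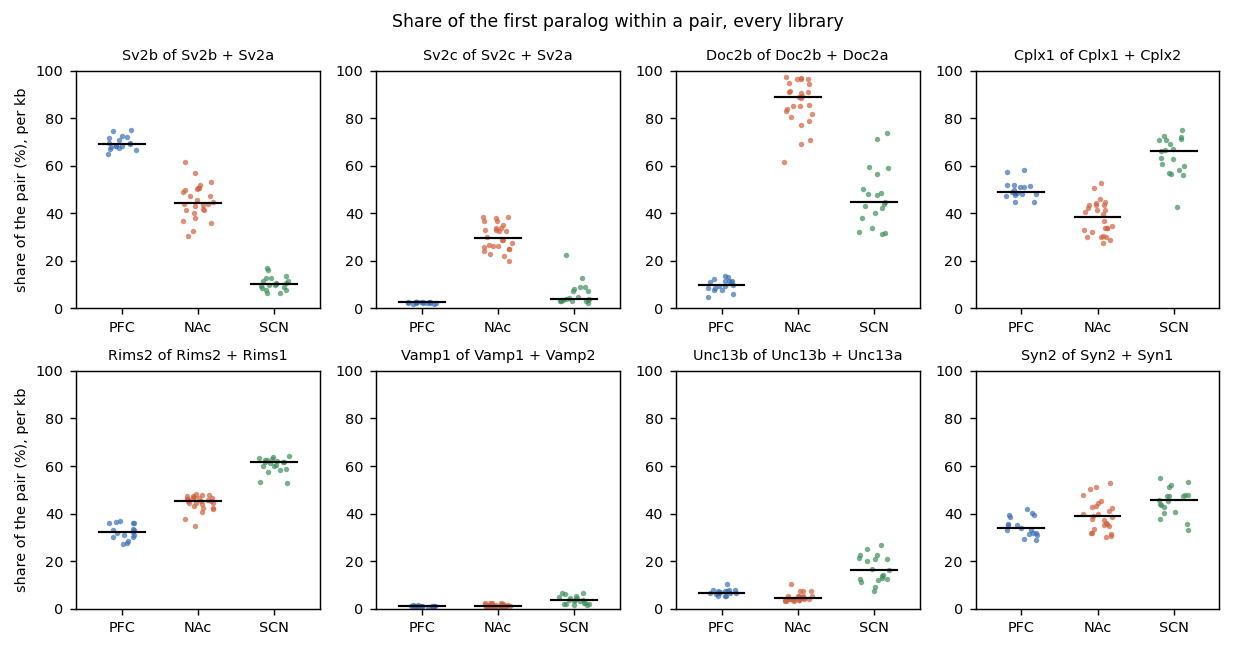
Share in percent of the first gene in the summed CPM per kb of a paralog pair, in every PFC, NAc and SCN library (points) with the median (bar). The PFC stands apart from both other regions for Sv2b and Doc2b.

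Members varied among libraries of a region about as much as other genes. Their coefficient of variation had a median of 18.6%, 11.4% and 20.1% in NAc, PFC and SCN libraries, beside 17.6%, 12.6% and 19.1% over all genes in both tables. The steadiest were Snap47 (4.57%) in the PFC, Syt4 (6.05%) in the NAc and Stx12, a syntaxin of endosomes (5.94%), in the SCN. The most variable were Syt6 (48.2%), Doc2a (71.3%) and Sv2c (87.2%) in the same order of regions. SCN J1199 was the highest SCN library for 6 of the 76 members listed there.

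Genes that work with these members, taken as a list of 43 active zone, vesicle membrane, SNARE recycling and endocytosis genes, of which 42 were tested, were called lower more often than higher in each comparison. Between the NAc and PFC, 8 were higher in the NAc, 27 lower and 7 not called (83.3% called, beside 45.4% of all genes), with a median log2 fold change of -0.43. The largest changes were -1.40 in Rph3a, an effector of Rab3, and 1.16 in Ppfia4, a liprin scaffold of the active zone. Against the NAc, 10 were higher in the SCN, 17 lower and 15 not called (64.3% called, beside 64.1%), from -1.92 in Synpr to 2.03 in Cadps2, a priming factor of dense-core vesicles. Against the PFC, 5 were higher in the SCN, 28 lower and 9 not called (78.6% called, beside 64.7%), with a median of -0.66 and a lowest value of -2.46 in Bsn, which encodes the scaffold Bassoon.

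In RefSeq, 60 of the 78 members had a promoter entry, with 79 windows in all. The GC box, GGGCGG on either strand, was in 64.6% of the 250-base upstream windows of members, against 32.7% of all 32851 windows. The E-box CACGTG was in 13.9% of member windows and 6.02% of all windows, in 9 members that include Syt6, Sv2b, Stxbp2, Unc13b and Vamp4. The cAMP response element TGACGTCA was in 2.53% of member windows, those of Stxbp3 and Syn1, against 1.55% of all. TATAAA on either strand was in 7.59% of member windows against 12.4% of all. A match describes these letters and is not a site. Member windows are those of listed genes, while the 32851 windows were not limited to listed genes, so the shares are not like for like. Whether listed genes as a whole hold these letters more often was not tested. Windows of 1 gene can overlap, as windows 1 and 2 of Syt6 do, so the same E-box is counted in both.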

How the data were processed

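Gene counts of 62 punch libraries (26 NAc, 17 PFC, 19 SCN) were analysed. The authors prepared SMART-seq HT libraries, checked reads with FastQC 0.11.7 and aligned them to GRCm38 with HISAT2 2.1.0. They counted reads on genes with HTSeq 0.10.0. The counts they deposited are unnormalized and limited to genes that passed a filter. These counts form a table of 11569 rows for the NAc and PFC and a table of 12047 rows for the SCN. Symbols, positions and exon lengths came from GENCODE M21. The members and gene lists were chosen with earlier results of these data known. Named with values were the release core genes and, per role, the called genes that differed most, up and down, between NAc and PFC. The values of 2 core genes are not reported here, though both were tested and are in the counts of members.

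Counts of NAc and PFC libraries entered edgeR's quasi-likelihood test (version 4.0.16, R 4.3.3; TMM, filterByExpr), and the SCN was compared with both in a joint fit of the 11133 shared genes. CPM of members in both tables used the scaling factors of the joint fit, also beside the NAc and PFC comparison, which was fitted with factors of its own. CPM of members in 1 table used the factors of that table, as did marker sums not given on the joint scale. Paralog shares were divided by exon length. In simulated counts the tests recovered the changed genes. SE is an approximate standard error, the size of the log2 fold change divided by the square root of the test's F statistic. Within a region libraries are separate mice, but a mouse can give libraries to several regions. The main fits held region alone and did not use this pairing. A count is subject to counting error at total depths of 16496666 to 60009482. The mouse number pairs the libraries, since it names the animal, but SCN J1165 did not match its number in Xist, so a block without that mouse was added after the data were seen. Correlations between a mouse's NAc and PFC deviations from the region means ranged from -0.52 to 0.29 and were over 0.1 in 8 of 17 mice. They ran from -0.43 to 0.54 for SCN and NAc, and from -0.32 to 0.42 for SCN and PFC. No 2 libraries of a region agreed within sampling noise. The alternatives were DESeq2 1.42.0, its size factors, other filters, no fold threshold, nuclear protein-coding genes alone, either range of mouse numbers (up to J1021, from J1140), a block for the mouse, and the libraries that stand apart left out. Marker lists covered neurons in general, glutamatergic, GABAergic, striatal and SCN neurons, astrocytes, oligodendrocytes, microglia, ependymal and vascular cells. Tables and plots used Python 3.11.15, pandas 2.3.3 and matplotlib 3.10.9.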

Additional observations from a re-analysis of the deposited data

How the results depend on the processing

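The counts of members called stayed within 1.5 times under every alternative run, from 44 to 62 between the NAc and PFC, 45 to 59 for the SCN against the NAc and 51 to 64 against the PFC. Counts over all genes ran from 4088 to 7300, 6132 to 8684 and 6200 to 8470 in the same order, so this spread is not particular to the members. Of 1251 gene values recomputed, 1194 kept direction and side of the thresholds, 22 lost a call, 20 gained one and 15 turned, of which 13 belonged to genes not called. With the replicate block of the mouse number, 55, 49 and 51 members were called, against 53, 49 and 53 in the same mice without it. Syt3 and Cplx1 between the NAc and PFC, Syn3 and Stx6 for the SCN against the NAc, and Unc13c and Syt6 against the PFC lost their calls in these mice with the block or without it, and Rab33b against the PFC with the block alone. Between the NAc and PFC, Stxbp5, Snap23, Sv2a and Stx16 gained calls with the block or without it, and Syt11 and Vamp1 with the block alone. With the block Vamp4 (0.053) and Rab3b (-0.12) turned between the NAc and PFC, and Rab3a (-0.0025) for the SCN against the NAc. A block without mouse J1165, added after the data were seen, called 50 and 52 members of the SCN against the NAc and PFC, gave -0.031 for Rab3a, lost Syt2 and called Syt13 (0.27) against the PFC, and kept Syn3 called against the NAc. The same mice without a block gave 0.057 for Vamp4 and -0.028 for Rab3a. The lower range of mouse numbers gave 0.12 for Vamp4 and -0.0021 for Unc13c against the PFC, and the upper range 0.088 for Syt5 and -0.044 for Rab3a. Without the NAc libraries high in Slc17a7, Vamp4 (0.054) and Rab3b (-0.12) turned, as did Syn1 (0.035) and Stx1a (0.11) for the SCN against the NAc. Without SCN J1165, Rab3a was at -0.0045. The cause was not tested.

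Paralog shares depend on the division by exon length. Without it the medians in the NAc, PFC and SCN were 3.47, 2.70 and 8.87% for Vamp1, 21.6, 30.0 and 46.5% for Cplx1, 59.0, 80.3 and 17.4% for Sv2b, 53.9, 40.3 and 69.4% for Rims2, 7.73, 11.5 and 26.0% for Unc13b, 57.6, 52.1 and 64.1% for Syn2, and 48.9, 45.7 and 43.6% for Rab3c. Those of Sv2c were 46.6% in the NAc and 5.16% in the PFC, and that of Doc2b was 14.7% in the PFC. Members at a few CPM, such as Doc2a in the NAc and Syt6 in the PFC, carry the most counting error.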

Other observations

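Other marker lists gave values beside the regions compared, in CPM on the scale of the joint fit. Of 8 neuronal markers, 4 were lower in the NAc than in the PFC and none higher, and their summed level was 683 to 1964 CPM in the NAc (median 1389), 1059 to 1916 CPM in the PFC (median 1631) and 1023 to 1843 CPM in the SCN (median 1228). Against the NAc, 3 were higher in the SCN and 4 lower, and against the PFC 5 were lower and none higher. Microglial markers summed to 84.5 to 116 CPM in the NAc, 82.1 to 113 CPM in the PFC and 42.5 to 75.7 CPM in the SCN, where 4 of 5 were lower than in either region. Vascular markers summed to 51.7 to 88.3, 59.0 to 98.1 and 44.2 to 95.1 CPM in the NAc, PFC and SCN. Astrocyte markers had 2 of 5 lower in the NAc than in the PFC. Ependymal markers were listed in the SCN alone, all 5 of them, at a sum of 9.51 to 88.9 CPM on the scale of that table.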
